A study of Homo sapiens with 6 samples.

Results

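The histone genes were examined in Ago-RIP-seq data, in which AGO2 and the RNA attached to it are captured by an antibody (AGO2-IP) and the remaining RNA is kept as the flow-through. Members were the protein-coding genes whose symbols start with H1-, H2AC, H2BC, H3C, H4C, H2AZ, H2AX, H2AJ, H2BU, H3-3 or MACROH2A and whose summed count over the 4 mimic libraries was at least 100. Of the 60708 genes in the count files, 80 protein-coding genes carried such a symbol, and 52 reached the minimum, 42 of them cluster genes and 10 variant genes. The members just inside the minimum were H2BC12L with 102 counts, H4C15 with 137 and MACROH2A2 with 156, and the genes just outside it were H2AC1 with 56, H1-6 with 44 and H1-8 with 11. Cluster genes are here H1-1 to H1-6 and all H2AC, H2BC, H3C and H4C genes, and the other members are variant genes.

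Cluster genes encode the bulk histones that package newly copied DNA, and they are transcribed mainly in S phase. Their mRNAs have no introns and, as a rule, no poly(A) tail, and they end in a conserved stem-loop that is bound by the stem-loop binding protein SLBP and formed by a cleavage that needs the U7 small nuclear ribonucleoprotein. Variant histones such as H3.3 and H2A.Z are made outside S phase as well, from genes with introns or ordinary polyadenylated mRNAs, and macroH2A is a variant with a special role in chromatin compaction.

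The cells were MDA-MB-231, an established line of human triple-negative breast cancer cells, transfected at 25 nM with a synthetic mimic of miR-99b-5p or with a scrambled control oligonucleotide and taken 18 hours later. Cells with the mimic gave 2 libraries of each fraction, and cells with the control gave 1 library of each. Every library therefore came from cells that had received a transfected oligonucleotide, untransfected cells were not analysed here, and a control fraction is a lone library. Which fraction a control library holds is known from its label.

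Gene counts per library ran from 38022779 to 48544756 in the mimic libraries and were 7772149 and 8076375 in the control libraries. In the control libraries 73.7% and 76.7% of read pairs aligned to more than 1 place and went uncounted, against 2.38% to 19.2% in the mimic libraries, so transfection and library composition cannot be told apart in a comparison of mimic with control. Of 8 genes listed as high in this cell line, 7 had at least 59.0 CPM (counts scaled to 1000000 gene counts per library) in every library, among them VIM, CD44 and AXL, while SPARC was at 1.73 CPM or less. ESR1 and PGR, which triple-negative cells lack, were at 0.99 CPM or less, and CDH1 was at 3.96 or less. Of the other genes listed as low, GATA3 lay between 8.26 and 24.8 CPM and EPCAM between 2.80 and 11.8 CPM. KRT18 and ERBB2, listed as low too, reached 428 and 172 CPM. The 5 genes of blood, liver and connective tissue cells stayed at or below 3.71 CPM.

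The stem-loop was searched for as the histone stem-loop motif of 16 bases, on the transcript strand, in the annotated transcripts. It was found in 41 of the 42 cluster members (all but H2BC12L) and in 1 of the 10 variant members, H2AX, against 0.496% of the 19942 protein-coding genes. The sequences below are shown because they mark the end of the mRNAs whose distribution between the fractions is described, with the motif in capitals and a few flanking bases in lower case, 5′ to 3′ on the transcript strand, from GRCh38. H3C3 carries the commonest form, found in 38 cluster genes of any count. H4C2, H4C8 and H4C3 carry another form, found in 10 such genes.
H3C3, plus strand, chr6:26045844-26045869: gaaaaGGCTCTTTTCAGAGCCactca
H4C2, minus strand, chr6:26026896-26026921: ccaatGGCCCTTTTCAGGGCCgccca
H4C8, minus strand, chr6:26285126-26285151: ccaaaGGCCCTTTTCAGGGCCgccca
H4C3, plus strand, chr6:26104312-26104337: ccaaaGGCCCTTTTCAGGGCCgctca
H2AC20, plus strand, chr1:149887386-149887411: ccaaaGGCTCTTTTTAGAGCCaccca
H2AX, minus strand, chr11:119094893-119094918: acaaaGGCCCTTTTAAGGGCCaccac
For H3C3, H4C2, H4C3 and H2AC20 the last printed base is the annotated end of the gene. H4C8 and H2AX are also annotated with transcripts that run past the stem-loop, as are 14 of the 42 cluster members in all, while 27 are annotated with the stem-loop end only. A match of these letters is a description of the sequence and was not tested for binding.

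The 2 classes also differed in features that the symbols did not use. The median length of annotated exons was 509.5 bases in cluster members and 3579 bases in variant members, and the median GC content was 57.0% and 49.8%. ACGGGT, the 6 bases that pair with the seed of miR-99b-5p, was found on the transcript strand of 1 of 42 cluster members (H2BC6) and 1 of 10 variant members (MACROH2A1), against 21.6% of all protein-coding genes, whose transcripts are longer. In the RefSeq promoter windows around the start, available for 37 cluster members, CCAAT on either strand was found in 30 (81.1%) and TATAAA in 29 (78.4%). The shares in 9 variant members were 66.7% and 44.4%, and in all 27305 promoters 35.7% and 12%.

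Most of the histone genes that missed the minimum lay together on the short arm of chromosome 6, among neighbours with high counts. From H4C4 to H2BC10, over 84.7 kb at chr6:26188710-26273412 in GRCh38, 15 consecutive histone genes (H4C4, H3C4, H2AC7, H2BC7, H4C5, H2BC8, H2AC8, H3C6, H1-3, H4C6, H4C7, H3C7, H2BC9, H3C8 and H2BC10) had 0 to 10 counts each over all 6 libraries, 74 in all, and none had more than 6 in any library. The genes on either side, H2BC6 and H4C8, had 5713 and 185203 counts. The run holds genes of every family, among them the linker histone gene H1-3 and 4 H4 genes, and the 6 other annotated genes inside it had at most 3 counts each. Every 100-base window of the 15 genes was unique in the genome, and their counts on both strands together were at most 61. A second run, H2AC16, H1-5, H3C11 and H4C13, covered 8.22 kb at chr6:27865317-27873534 with 3 to 8 counts each, between H2BC15 with 15915 and H3C12 with 14797 counts. H3C4 and H2AC7 had 0 counts over the 6 libraries, which allows up to 0.0153 CPM at 3 counts. DNA copy number and chromatin were not measured in these samples, and their part in the low counts was not tested.

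**Figure D1:**
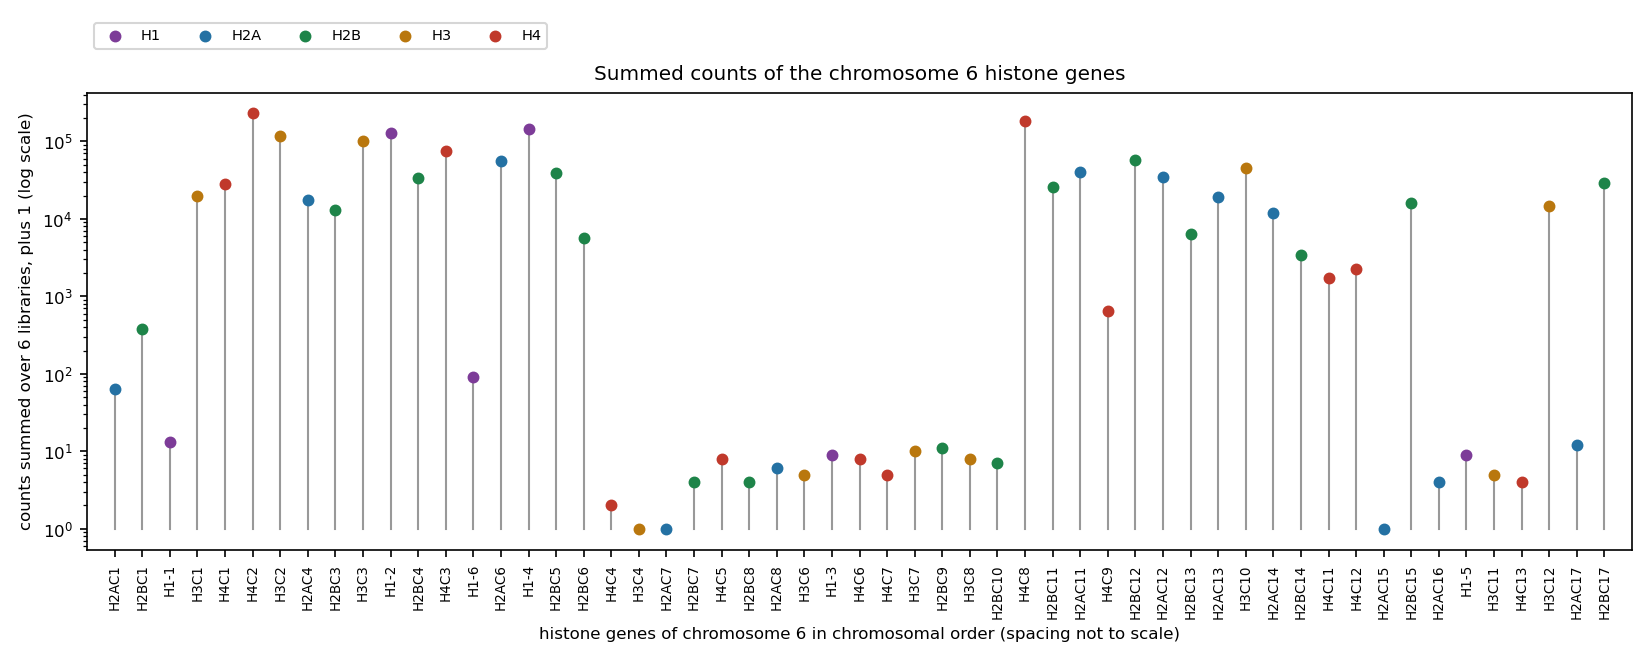
Counts of the 55 histone genes on chromosome 6, summed over the 6 libraries plus 1, on a log axis and in chromosomal order, with one point per gene coloured by family. The run of 15 genes from H4C4 to H2BC10 lies at 0 to 10 counts between H2BC6 at 5713 and H4C8 at 185203.

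H2AC15 had 0 unstranded counts but 5270 and 4574 counts in the 2 stranded columns. Read pairs on overlapping genes are left out of unstranded counts, so its value of 0 is limited by the counting. Which of the overlapping genes those pairs came from was not tested. The same limit applies in part to 11 members whose stranded counts together were over 1.2 times the unstranded ones. Among them were H4C9 (3.93 times), H2AZ1 (2.21 times), H2AC21 (1.80 times) and H1-10 (1.70 times). For 10 members under 50% of 100-base windows were unique, and H3C14, H3C15, H4C14, H4C15 and H2BC12L had no unique window. Only uniquely mapped pairs were counted, so the values of these 10 are uncertain.

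In mimic-transfected cells the cluster genes were less abundant in the AGO2-IP than in the flow-through, relative to all counted RNA, and the variant genes lay on both sides of 0. The median log2 fold change of AGO2-IP over flow-through was -1.76 over the 40 cluster members tested and 0.41 over the 9 variant members tested, against -0.11 over all 13078 genes tested. It was -1 or lower in 32 of 40 cluster members and 2 of 9 variant members, against 26.9% of all genes, and 1 or higher in 2 and 3 members, against 20%. The cluster median was -1.68 without H3C14, H3C15 and H4C14, which had under 100 counts in 1 of the fractions and so passed the minimum through the other, a setting chosen after seeing the data. Of the 37 cluster members left, 29 were at -1 or lower. Both AGO2-IP libraries lay below both flow-through libraries for 25 of 40 cluster members and 2 of 9 variant members (28.5% of all genes), and above them for 2 and 3 (28.1%). H3C14, H3C15 and H4C14 are among the 25.

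With edgeR's quasi-likelihood test and Benjamini-Hochberg adjustment, calling genes at or beyond a log2 fold change of 1 or -1 with an adjusted p-value no higher than 0.05, 0 of the 49 members tested were called (0.413% of all genes were called lower and 0.245% higher). At an unadjusted p under 0.05 there were 25 of 40 cluster members and 3 of 9 variant members (23.8% of all genes in either direction). Of the 25 cluster members 23 were lower in the AGO2-IP (13.1% of all genes), H3C14, H3C15 and H4C14 among them. A replicate block in the same fit gave 15 cluster members called lower and 0 members called higher (5.08% and 4.60% of all genes). The 15 included H3C14 and H3C15, which passed the minimum through the flow-through, and 13 remained without them. PyDESeq2 called 18 cluster members lower, among them all 15 called with the block (H3C14 and H3C15 included), and H4C8 and H3-3B higher (8.40% and 6.59%). Once the trend on GC content was removed edgeR called H2AC6, H3C3 and H3C10 lower and 0 members higher (2.17% and 3.13%). With the block as well it called 20 cluster and 2 variant members lower and 2 cluster and 3 variant members higher (12.5% and 13.7%). Those 20 include H3C14, H3C15 and H4C14. Without flow-through replicate 1 edgeR called 16 cluster members and 1 variant member lower and 1 and 2 higher (20.6% and 20.2% of all genes), and without flow-through replicate 2 it called 17 cluster members lower and 0 members higher (3.40% and 1.90%).

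**Figure D2:**
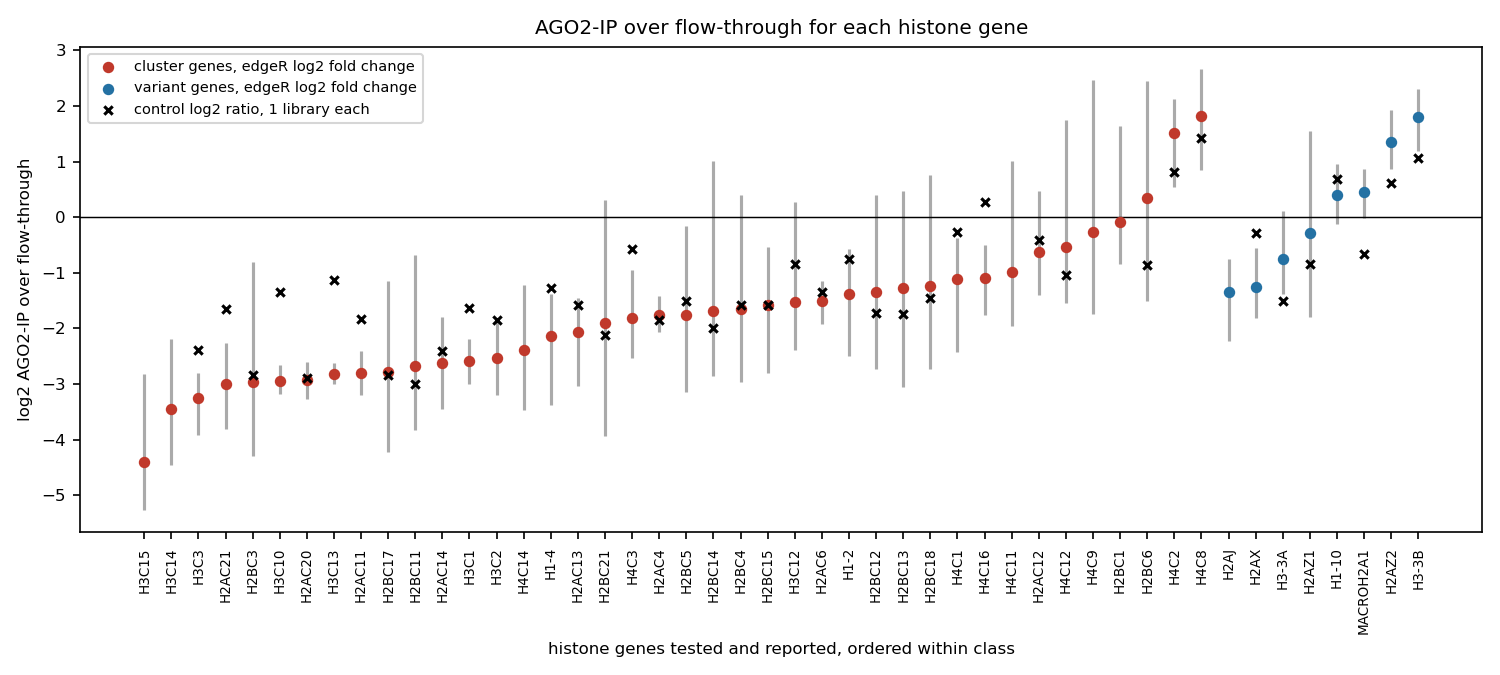
Log2 fold change of mimic AGO2-IP over mimic flow-through for the histone genes tested and reported (points, edgeR), with grey lines that span the lowest and the highest of the 4 differences a mimic AGO2-IP library can form with a mimic flow-through one, and crosses for the log2 ratio of the control libraries. Over all members tested, cluster genes have a median of -1.76 and variant genes of 0.41, and H4C2 and H4C8 lie apart from the other cluster genes.

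The H3 cluster genes, which encode the replication-coupled core histones H3.1 and H3.2, had the lowest median of the 5 families in mimic cells. All 8 were below -1, with a median of -2.89, and the block called 7 of them lower (5.08% of all genes). Without H3C14 and H3C15 the median of the other 6 was -2.71, and the block called 5 of them. In the control libraries the H3 median of -1.48 was above those of H2A (-1.74) and H2B (-1.73). H3C3 measured 1091 and 775 CPM in the mimic flow-through libraries and 64.1 and 132 CPM in the AGO2-IP libraries. Both AGO2-IP libraries were below both flow-through libraries, and the log2 fold change was -3.26 ± 0.66 (SE, n = 2 and 2; edgeR's adjusted p = 0.0529 by Benjamini-Hochberg, 0.000502 with the block). H3C2, the H3 gene of highest count, measured 1408 and 653 CPM in the flow-through and 136 and 210.2 CPM in the AGO2-IP, a log2 fold change of -2.53 ± 0.63 with an adjusted p of 0.0698 in edgeR and 0.00904 with the block. H3C10 differed little between replicates, with 414 and 412 CPM in the flow-through and 57.7 and 54.0 CPM in the AGO2-IP. H3C15 and H3C14 had the lowest fold changes of all cluster members, -4.40 and -3.45, but they have no unique window and reached at most 4.70 and 2.64 CPM in any library.

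The H2A cluster genes, which encode the core histone partner of H2B, had a median log2 fold change of -2.34. All 8 were below 0 (53.0% of all genes), and 5 were called lower with the block (5.08%). H2AC11 measured 369 and 332 CPM in the flow-through and 45.0 and 59.2 CPM in the AGO2-IP (log2 fold change -2.79 ± 0.62, edgeR's adjusted p = 0.0601, 0.00676 with the block). H2AC6, whose annotation holds a transcript past the stem-loop, measured 539 and 318 CPM in the flow-through and 179 and 121 CPM in the AGO2-IP, and its log2 fold change was -1.51 (edgeR's adjusted p = 0.159). In both genes the 2 fractions did not overlap. Of the linker histone genes, whose proteins bind between nucleosomes, only H1-2 and H1-4 were members of the cluster class. H1-4 measured 1253 and 1061 CPM in the flow-through and 128 and 406 CPM in the AGO2-IP (log2 fold change -2.14 ± 0.69, edgeR's adjusted p = 0.115, 0.0138 with the block). H1-2 measured 1257 and 635 CPM against 197 and 507 CPM, and its log2 fold change was -1.39 (adjusted p = 0.222 in edgeR).

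The H2B cluster genes encode the remaining partner of H2A, and of the 5 families they differed most between the flow-through libraries. Their median log2 fold change was -1.66 over 13 genes, and the block called H2BC3 and H2BC17 lower (5.08% of all genes). H2BC12 measured 739.6 and 138 CPM in the flow-through and 98 and 218 CPM in the AGO2-IP, so that the fractions overlapped, and its log2 fold change was -1.35 ± 0.75 (edgeR's adjusted p = 0.289). H2BC18, one of the genes with few unique windows, measured 519 and 79.1 CPM against 68.7 and 160.5 CPM. Flow-through replicate 1 was above replicate 2 by a median of 2.22 on the log2 scale over the 13 H2B genes, and by at least 1 in 12 of them, while the median over all genes was 0.08 and that over the 8 H3 genes -0.19. AGO2-IP replicate 1 was below replicate 2, by a median log2 difference of -1.28 over the H2B genes and -1.58 over the H1 genes. GC content followed the difference between the flow-through libraries over 11747 protein-coding genes (Spearman's rho -0.741, a description across genes that share the libraries), but across the 49 histone members rho was -0.18. The part of GC content in the H2B values was not tested. H2BC6, the cluster member with ACGGGT, measured 49.0 and 7.58 CPM in the flow-through and 15.3 and 49.5 CPM in the AGO2-IP, with a log2 fold change of 0.34 (adjusted p = 0.827 in edgeR).

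**Figure D3:**
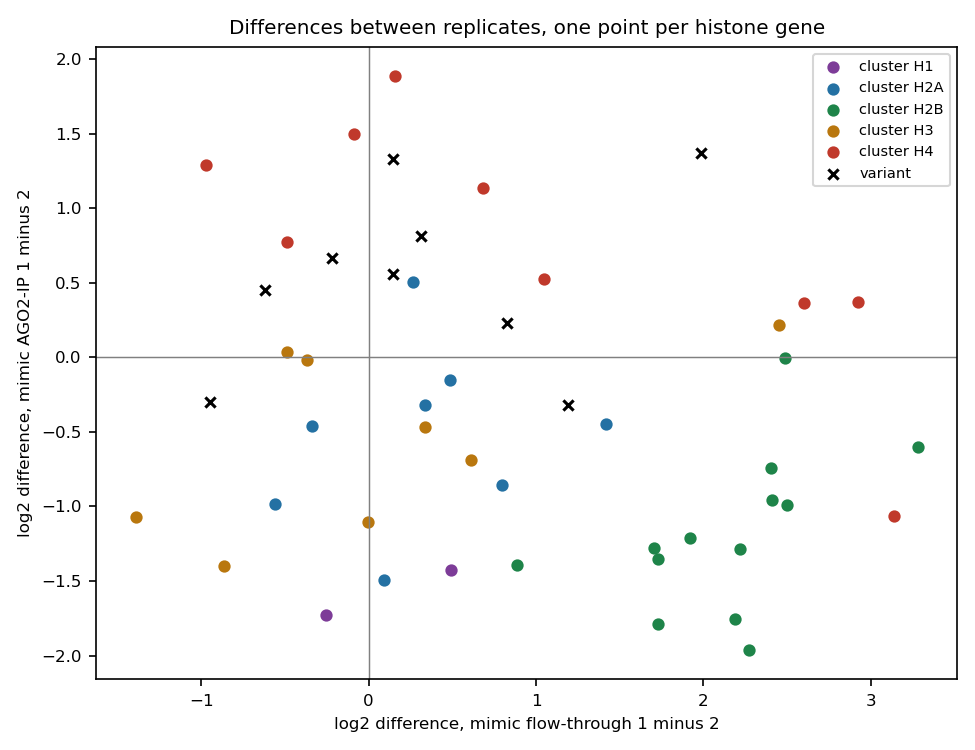
Log2 difference of the mimic flow-through libraries (horizontal axis, replicate 1 minus 2) and of the mimic AGO2-IP libraries (vertical axis, replicate 1 minus 2), with one point per histone gene coloured by class and family. The 13 H2B genes lie to the right, at a median of 2.22, and below 0, at a median of -1.28.

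The H4 cluster genes, which all encode the same core histone, did not share a direction. H4C2 measured 723 and 544 CPM in the flow-through and 2776 and 944 CPM in the AGO2-IP. H4C8 measured 620 and 274 CPM in the flow-through and 2160.4 and 944 CPM in the AGO2-IP. For both genes the AGO2-IP libraries were above the flow-through libraries, with log2 fold changes of 1.51 ± 0.65 and 1.82 ± 0.64, and neither was called by edgeR (adjusted p = 0.188 and 0.132). H4C3, which has the same 16-base stem-loop as these genes, measured 901 and 309 CPM in the flow-through and 199 and 133 CPM in the AGO2-IP, a log2 fold change of -1.81 (adjusted p = 0.132 in edgeR). The remaining H4 members tested lay between -2.40 and -0.27, and 7 of the 9 H4 members tested were below 0 (53.0% of all genes). The lowest value is that of H4C14, which passed the minimum through the flow-through and has no unique window. The others of the remaining members lay between -1.11 and -0.27. The H4 median was -0.99 with H4C14 and -0.76 without it. H4C2 and H4C8 together held 71.5% and 38.1% of all cluster counts in the mimic AGO2-IP libraries, against 8.96% and 11.2% in the flow-through libraries. In the control libraries their share was 21.7% of the AGO2-IP (95% Wilson interval 21.3% to 22.1%) and 4.29% of the flow-through (4.10% to 4.48%). No molecular identifiers are described for these reads, and the intervals describe counting error alone.

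Per kilobase of annotated exon, the cluster members of highest mean level in the mimic flow-through were H3C2 with 2017 CPM per kb, H3C3 with 1920.5, H4C2 with 1634 and H4C3 with 1494. In the mimic AGO2-IP H4C2 was far above the rest with 4795 CPM per kb, followed by H4C8 with 718 and H1-2 with 482. The variant member of highest level in the flow-through was H2AX, with 261 CPM per kb. The exon length of genes with long alternative transcripts, such as H4C8 with 2163 bases and H3-3B with 6134, makes these levels low estimates for their short forms. Cluster members annotated with the stem-loop end only had a median log2 fold change of -2.06 (27 genes). Those with a longer transcript as well had a median of -1.58 (13 genes tested), a difference that was not tested. The former include H3C14 (-3.45) and H3C15 (-4.40), and the latter H4C14 (-2.40). These genes passed the minimum through the flow-through, have no unique window and lie below the median of their group.

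The variant genes were spread to both sides of 0. H3-3B, which encodes the replication-independent H3.3, measured 618 and 354 CPM in the flow-through and 2181 and 1191 CPM in the AGO2-IP, with a log2 fold change of 1.80 ± 0.60 (edgeR's adjusted p = 0.121). H2AZ2, a gene for H2A.Z, measured 666 and 267 CPM in the flow-through and 1264 and 1034 CPM in the AGO2-IP, with a log2 fold change of 1.35 ± 0.60 (adjusted p = 0.199 in edgeR). For both genes the AGO2-IP libraries were above the flow-through libraries.

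The sister genes of the same proteins had other values. H3-3A, which encodes H3.3 as well, measured 294 and 91.5 CPM in the flow-through and 99.3 and 119 CPM in the AGO2-IP, with a log2 fold change of -0.74, and H2AZ1 measured 279.9 and 50.2 CPM against 184 and 68.0 CPM, with a log2 fold change of -0.28. In both genes the fractions overlapped. MACROH2A1, which encodes macroH2A and is the variant member with ACGGGT, measured 223 and 184 CPM against 358 and 217 CPM (log2 fold change 0.46), and H1-10 measured 96.3 and 105 CPM against 165 and 116 CPM (0.41). MACROH2A2 stayed between 0.39 and 1.32 CPM in all 6 libraries and was not tested.

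H2AX, whose phosphorylated protein marks DNA breaks, is the variant member whose transcripts include one ending in a stem-loop. It measured 352 and 480.4 CPM in the flow-through and 171 and 202 CPM in the AGO2-IP, so that both AGO2-IP libraries were lower. Its log2 fold change of -1.25 ± 0.61 was not called (adjusted p = 0.236 in edgeR), and it was 0.16 once the trend on GC content was removed. H2AJ, the only other variant member with both AGO2-IP libraries below the flow-through, measured 27.1 and 17.4 CPM against 12.8 and 4.87 CPM (log2 fold change -1.35).

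Summed over genes, the cluster class outweighed the variant class less in the AGO2-IP than in the flow-through. Cluster genes took 1.5% and 0.730% of gene counts in the mimic flow-through libraries against 0.690% and 0.496% of those in the AGO2-IP, and variant genes took 0.290% and 0.177% of the former against 0.531% and 0.352% of the latter. The cluster-to-variant ratio was thus 5.16 and 4.11 in the flow-through and 1.30 and 1.41 in the AGO2-IP. Its log2 difference was -1.77, against a spread between replicates of 0.24 (SD), which is 3.41-fold lower in the AGO2-IP. The exact permutation test over the 4 libraries gave a two-sided p of 0.333, the smallest that 2 against 2 libraries allow. Without H4C2 and H4C8, a set chosen after their values were seen, the difference was -2.87, with a larger spread between replicates of 0.91 (SD). Leaving out cluster genes that were higher in the AGO2-IP lowers the difference by itself.

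**Figure D4:**
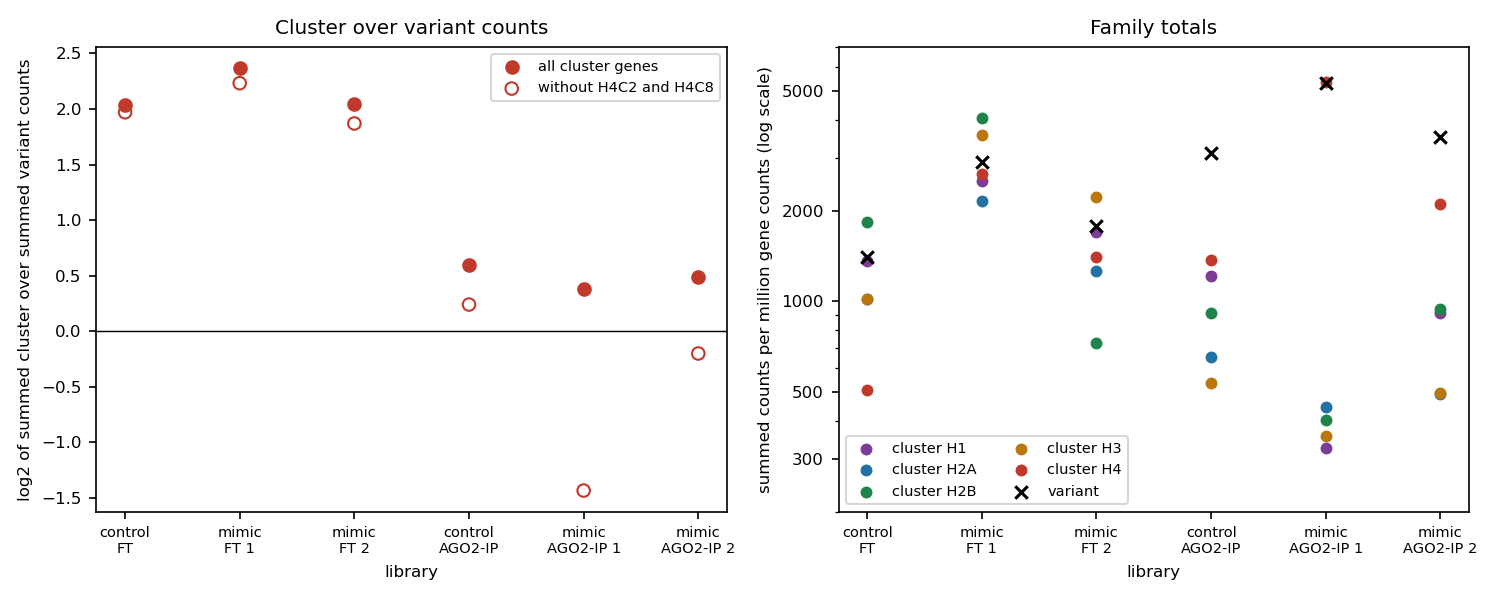
Left, log2 ratio of summed cluster to summed variant counts in each of the 6 libraries (FT is the flow-through), for all cluster genes (filled) and without H4C2 and H4C8 (open). Right, summed CPM of each cluster family and of the variant genes on a log axis. The ratio of the classes lies at 2.03 to 2.37 in the 3 flow-through libraries and at 0.38 to 0.59 in the 3 AGO2-IP libraries.

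The control libraries, which share no sample with the mimic comparison, allowed the same ratio to be taken in cells with the scrambled oligonucleotide. With 1 library per fraction it has no replicate check and no test. The median log2 ratio of control AGO2-IP over control flow-through was -1.58 over 34 cluster members and 0.10 over 8 variant members, against 0.01 over 8245 genes. Scaled by library size alone these medians were -0.68, 1.0 and 0.91, so relative to all genes the classes kept their order. Of the 34 cluster members 25 had a log2 ratio of -1 or lower (18.1% of all genes), and 8 by library size alone (4.92%). Both in mimic and in control cells 30 of 34 cluster members were below 0, against 32.9% of 8225 genes with both values, and by library size alone 25 of 34 were, against 16.2%. Summed counts gave a cluster-to-variant ratio of 4.09 in the control flow-through and 1.51 in the control AGO2-IP, a log2 difference of -1.44. H4C2 and H4C8 were on the other side of 0 here too. H4C2 measured 122 CPM in the control flow-through and 402 CPM in the AGO2-IP, a log2 ratio of 0.82, and H4C8 measured 124 and 615 CPM, a log2 ratio of 1.42. H3-3B had a log2 ratio of 1.06 in the control libraries, H2AZ2 of 0.62, H3C3 of -2.38 and H2AX of -0.28. The log2 ratios of genes are TMM-scaled and the CPM are scaled by library size alone, so they differ. H2AX measured 296 CPM in the control flow-through and 454 CPM in the control AGO2-IP, so its direction depended on the scaling.

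Between mimic and control AGO2-IP the cluster genes differed less. This comparison and the next share their libraries with those above, rest on 1 control library and have no test. In bulk samples a difference between mimic and control in the number of cells in S phase and one in the histone RNA of each such cell cannot be told apart. The median log2 ratio of mimic over control AGO2-IP was -0.38 over 36 cluster members and 0.46 over 9 variant members, against 0.02 over 11467 genes. Of the cluster members 4 had a log2 ratio of -1 or lower (17.4% of all genes) and 2 of 1 or higher (17.3%). The last 2 were H4C2, with a log2 ratio of 2.14 (2.89 and 1.39 for the 2 mimic libraries), and H4C8, with 1.35 (1.92 and 0.78). H3-3B had a log2 ratio of 1.30 (1.71 and 0.89). H1-4 had a log2 ratio of -1.41 (-2.27 and -0.55), and H2AX of -1.15 (-1.30 and -1.0). H2BC6 and MACROH2A1, the members with ACGGGT, had log2 ratios of 0.08 (-0.80 and 0.95) and 0.80 (1.13 and 0.46). The number of cluster members at -1 or lower was 1 without mimic AGO2-IP replicate 1 and 12 without replicate 2 (17.5% and 19.1% of all genes). The number at 1 or higher was 1 and 3 (17.7% and 19.9%). The cluster median was -0.09 without mimic AGO2-IP replicate 1, -0.78 without replicate 2, and 0.17 once the trend on GC content was removed.

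In the flow-through the median log2 ratio of mimic over control was 0.07 over 39 cluster members and 0.19 over 9 variant members, against 0.05 over 12254 genes. The cluster members included 10 with a log2 ratio of 1 or higher (10% of all genes) and 5 with -1 or lower (10.2%). Without flow-through replicate 1 these counts were 6 and 14 (20.6% and 20.7% of all genes). Without replicate 2 they were 8 and 0 (6.16% and 11.7%), and by library size alone 13 and 0 (25.9% and 4.17%). The cluster median was -0.25 without replicate 1 and 0.39 without replicate 2. The 8 H3 members lay between 0.34 and 1.63 with a median of 1.21. They were above the control in 8 of 8 genes for replicate 1 and in 7 of 8 for replicate 2. The highest were H3C15 (1.63) and H3C14 (1.62), both among the 10 at 1 or higher. They had only 6 and 4 counts in the control library, so they passed the minimum through the mimic libraries, and have no unique window. The other H3 members lay between 0.34 and 1.46. The 13 H2B members had a median of -0.50, and the libraries took opposite sides. In replicate 1 the ratio was above 0 in 12 of 13 H2B genes (median 0.52), and in replicate 2 it was below 0 in all 13 (median -1.60). H4C2 had a log2 ratio of 1.89 (1.83 and 1.94) and H3-3B of 0.87 (1.01 and 0.73), so for both genes every mimic library lay above the control library of its fraction.

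Genes that make and handle histone mRNAs and histones were read from 3 lists. Of 37 genes of histone mRNA 3′ end processing and transcription tested in mimic cells, edgeR called 0, and 12 had an unadjusted p under 0.05 (23.8% of all genes in either direction). Their median log2 fold change was 0.78, against -0.11 over all genes. The block called DHX9, SNRPE and NCBP2 higher and MIF4GD lower (4.60% and 5.08% of all genes), and PyDESeq2 called 6 higher and 2 lower (6.59% and 8.40%). SLBP, which holds the stem-loop, measured 92.9 and 113 CPM in the flow-through and 52.1 and 54.7 CPM in the AGO2-IP, a log2 fold change of -1.02 (edgeR's adjusted p = 0.315). LSM11, a U7 snRNP protein, measured 18.7 and 10.5 CPM against 43.6 and 67.6 CPM, a log2 fold change of 1.95 (edgeR's adjusted p = 0.118). LSM10, its partner in the U7 snRNP, measured 47.8 and 26.9 CPM against 8.81 and 8.15 CPM, a log2 fold change of -2.13 (adjusted p = 0.105 in edgeR and 0.00922 in PyDESeq2). NPAT, the transcriptional coactivator of cluster genes, had a log2 fold change of 0.90, CASP8AP2, a protein of the histone locus body, of 0.93, and ZNF473, a U7-associated zinc finger protein, of 1.02, each uncalled.

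Of 33 genes of histone chaperones and deposition tested, edgeR called 0, 12 had an unadjusted p under 0.05 (23.8% of all genes), and the median log2 fold change was 0.39. The block called 7 higher and 0 lower (4.60% and 5.08% of all genes), among them NASP, a chaperone of H1 and H3, and NPM1, a nucleolar chaperone, with log2 fold changes of 2.34 and 2.94 in the fit without the block. PyDESeq2 called 6 higher and 0 lower (6.59% and 8.40%). Of 40 S phase genes tested, edgeR called 0, 9 had an unadjusted p under 0.05, a share below the 23.8% of all genes, and the median was 0.24. The block called 3 higher and 1 lower (4.60% and 5.08% of all genes), and PyDESeq2 called 7 higher and 1 lower (6.59% and 8.40%), each including MCM6, a subunit of the replicative helicase (log2 fold change 3.23), as higher and CDT1, its loading factor (-2.71), as lower. In the control libraries the medians of the 3 lists were -0.15, 0.01 and 0.27.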

How the data were processed

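The histone genes and the other lists of genes were chosen with earlier results of these data known. The authors checked paired-end reads with FastQC 0.11.9, removed adaptors by Cutadapt 3.5, ran STAR 2.7.11b against GRCh38 and deposited its gene counts, raw whole numbers of uniquely mapped read pairs (versions from the submitters' processing notes). Column 2, unstranded, was used. Rows that name no gene, 21.4% to 95.0% of read pairs in a library, were left out. Whether poly(A) RNA was selected is not given in the sources used here. That choice bears on RNAs with no poly(A) tail. Names, exons and transcripts came from GENCODE release 44 (60463 of 60708 genes) and promoters from RefSeq (GRCh38). H2BU1 is named H2BC26 in that release, and it had 3 counts over the mimic libraries.

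Mimic libraries were compared with edgeR 4.0.16 in R 4.3.3 (TMM, quasi-likelihood, summed count of at least 200, Benjamini-Hochberg over all genes), without a replicate term. The SE of a log2 fold change is its size over the square root of F. The control comparisons are log2 ratios of TMM-scaled CPM with a prior count of 2. CPM by library is the count over the library's gene counts. The labels number the mimic replicates in both fractions, and same-numbered libraries deviated together (Pearson's r 0.324 and Spearman's rho 0.236 across 13078 genes), so the block is given where it changes a call. The methods call the replicates independent and biological, and do not say that both fractions of a number came from the same lysate. Intervals are 95% Wilson intervals. PyDESeq2 0.5.4 left 254 genes without an adjusted p-value. The script was tested on simulated data.

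Genes named are every variant member but 1, which is not reported here, the 2 cluster members of highest count in each family, the 3 highest and 3 lowest log2 fold changes of the cluster, members and genes next to the minimum, 5 genes of histone mRNA metabolism, and any member or list gene called by edgeR without the block, of which there were 0. H3C10, H4C3, H4C16, H1-3, the genes of the low runs, genes with a counting limit, members called by other fits and the other list genes were named after their values were seen. Alternatives were other scalings, filters, strand columns, GC trend removal, the block, all 6 libraries in one fit, protein-coding genes only, thinning to the shallowest library, other class definitions and each mimic library left out, and, added after seeing the data, a minimum of 100 counts in each mimic fraction.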

Additional observations from a re-analysis of the deposited data

Results flagged for a closer look

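H4C16, a cluster gene on chromosome 12, was the member whose direction differed between mimic and control cells in every library. It measured 109 and 109 CPM in the mimic flow-through and 68.4 and 38.3 CPM in the mimic AGO2-IP, while the control flow-through held 31.1 CPM and the control AGO2-IP 69.7 CPM. The log2 difference of AGO2-IP over flow-through was between -1.76 and -0.50 for the 4 mimic library pairs, and the log2 ratio of the control libraries was 0.27. Of all 8225 genes with both values 11.6% had every mimic difference opposite to the control ratio, and 1 of 42 members did. The difference was not tested.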

How the results depend on the processing

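The count of histone members called in mimic AGO2-IP against flow-through was 0 in edgeR and stayed 0 with DESeq2's size factors, library size alone, each strand column, all 6 libraries in one fit, protein-coding genes only, a summed count of at least 100, other class definitions and no minimum fold change. It was 15 with the replicate block (5.08% of all genes called lower and 4.60% higher) and 27 with the GC trend removed as well (12.5% and 13.7%). With the GC trend removed alone it was 3 (2.17% and 3.13%), and by PyDESeq2 20 (8.40% and 6.59%). With no filter it was 6, where 204 of 43635 genes were called lower and 419 higher. At a summed count of at least 10 it was 1 (H3C3), where 86 of 26358 genes were called lower and 144 higher. After thinning it was 10, where 254 of 10008 genes were called lower and 170 higher. Leaving out a mimic library gave 0 to 20 calls, with 20 without flow-through replicate 1 (20.6% of all genes lower and 20.2% higher) and 17 without flow-through replicate 2 (3.40% and 1.90%), where the lone library is assumed to vary like the AGO2-IP libraries. The causes were not tested, except that with a library left out fewer samples enter the fit. The median log2 fold changes of cluster and variant members moved by less than the spread between replicates (SD 0.85 and 0.47) under every setting run. With the block they were -1.70 and 0.42. The cluster median ranged from -2.46 without AGO2-IP replicate 2 to -1.17 without flow-through replicate 1. The variant median ranged from 0.08 without AGO2-IP replicate 1 to 0.57 without AGO2-IP replicate 2.

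The log2 difference of summed cluster to variant counts was -2.82 without the 3 cluster genes of highest count, -2.02 without H2AX and -2.04 with classes by the stem-loop motif, and leaving out a library gave -1.93 to -1.61. Scaled by library size alone, the control medians were -0.68 (cluster) and 1.0 (variant). The variant median between the flow-through libraries was 0.13 with DESeq2's size factors, 0.15 with the GC trend removed, 0.049 and 0.11 in columns 3 and 4, 0.66 by library size alone, 0.25 at a summed count of at least 100, 0.22 without H2AX and by the stem-loop motif, and -0.022 to 0.17 with a library left out. H2AX was 0.16 and MACROH2A1 -0.050 with the GC trend removed, and 0.22 and -0.024 with the block as well. With a library left out H2AZ1 ranged from -1.14 to 0.98, H2BC18 from -2.04 to 0.22 and H2BC6 from -0.81 to 1.78. Low counts limit H3C14, H3C15, H4C14 and H4C15 most.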
